A study of Homo sapiens with 12 samples.

Results

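The genes described here are NF-kB feedback and chemokine genes measured by RNA-seq in HepG2, an established human liver cancer cell line. They were chosen by symbol from a list of 10 names, and 6 of the 10 had a row in the deposited table of 16389 genes. These were CCL20, IL8 (also called CXCL8), NFKBIA, TNFAIP3, NFKB1 and RELA. CXCL1, CXCL2, CXCL3 and CXCL5 are not analysed here. The rule itself takes symbols only, though the list was drawn up with earlier results of these data known.

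The 12 libraries fell into 4 groups of 3. Cells obtained from ATCC at passage 9 were kept for 48 h in normoglycaemic medium with 5.5 mM glucose (LG) or in hyperglycaemic medium with D-glucose at 20 mM (HG). In LGV and HGV, cells of these media received 1 mM valproic acid (VPA), an inhibitor of histone deacetylases, for 12 h more. All 4 groups shared the medium (DMEM with fetal bovine serum, penicillin and streptomycin), and no cytokine treatment is named. Whether untreated cells stayed in culture for the same added time, and whether the replicates were separate cultures, is not stated for RNA-seq, so p-values measure the spread between these libraries, which may be technical. The groups model liver only as far as a single transformed line grown alone does.

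NF-kB is a family of dimeric transcription factors that IkB proteins hold inactive in the cytoplasm. When tumour necrosis factor, interleukin-1 or Toll-like receptor ligands reach their receptors, the IKK complex marks IkB for degradation and the dimers enter the nucleus. Their targets include chemokines, which draw leukocytes to tissue, and the inhibitors that end the signal, so the pathway is a standard example of negative feedback. Hepatocytes use it in the acute phase response and in protection from cell death.

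Between 29798442 and 45572694 reads per library were counted on genes. Levels are given as CPM, the reads of a gene relative to all reads counted in its library after scaling by TMM factors, as mean ± SD over 3 libraries. These factors ran from 0.879 to 0.961 in LG and from 0.969 to 1.09 elsewhere. All 10 hepatocyte markers searched were in the table, with ALB the most abundant, and their summed level was 54300 to 61300 CPM in LG, 55500 to 63800 in HG, 41300 to 42200 in LGV and 48700 to 63100 in HGV. Of the leukocyte markers, 4 of 10 were in the table, led by LYZ, and their sum was 1070 to 1430 CPM in LG, 1240 to 1390 in HG, 910 to 1060 in LGV and 1440 to 1550 in HGV. PTPRC, CD68, ITGAM, CD163, TYROBP and MARCO had no row. The fibroblast list (3 of 8 in the table, 43.7 to 78.0 CPM in sum) and the endothelial list (3 of 6, 3.44 to 6.59 CPM) were low throughout. The share of reads on mitochondrial genes was 5.7 to 6.28% in LG, 7.5 to 7.72% in HG, 6.42 to 7.62% in LGV and 7.95 to 8.91% in HGV, so it was higher with VPA and with high glucose. The part of this share and of the marker sums in the results below was not tested.

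The promoters are shown because the members are grouped by their regulation through NF-kB. RefSeq entries on GRCh38.p14 matched all 6 genes, with 2 start sites each for NFKB1 and RELA. The windows searched covered 250 bases before to 50 after the start of transcription, and the 250 bases before it are printed 5′ to 3′ on the strand of the gene. Capitals mark matches on either strand to GGNNTTTCC, a short form of the binding site of NF-kB, and, in IL8, to TGANTCA, a form of the AP-1 site.
CCL20 (chr2:227813592-227813841, plus strand): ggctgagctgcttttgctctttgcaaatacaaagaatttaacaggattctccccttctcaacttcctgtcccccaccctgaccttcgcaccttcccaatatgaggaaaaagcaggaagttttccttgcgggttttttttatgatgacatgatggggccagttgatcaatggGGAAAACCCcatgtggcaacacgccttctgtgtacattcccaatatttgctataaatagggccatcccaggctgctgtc
IL8 (chr4:73740319-73740568, plus strand): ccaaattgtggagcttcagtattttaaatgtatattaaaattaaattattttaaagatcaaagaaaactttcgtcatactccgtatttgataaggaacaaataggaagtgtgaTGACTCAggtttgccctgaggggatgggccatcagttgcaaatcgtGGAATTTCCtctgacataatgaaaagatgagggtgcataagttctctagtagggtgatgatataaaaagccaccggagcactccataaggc
NFKBIA (chr14:35404750-35404999, minus strand): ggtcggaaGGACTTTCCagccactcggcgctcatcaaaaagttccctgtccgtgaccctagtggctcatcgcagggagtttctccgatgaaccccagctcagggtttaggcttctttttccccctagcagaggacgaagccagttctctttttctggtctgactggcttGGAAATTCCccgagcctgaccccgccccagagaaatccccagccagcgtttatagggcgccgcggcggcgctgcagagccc
TNFAIP3 (chr6:137867009-137867258, plus strand): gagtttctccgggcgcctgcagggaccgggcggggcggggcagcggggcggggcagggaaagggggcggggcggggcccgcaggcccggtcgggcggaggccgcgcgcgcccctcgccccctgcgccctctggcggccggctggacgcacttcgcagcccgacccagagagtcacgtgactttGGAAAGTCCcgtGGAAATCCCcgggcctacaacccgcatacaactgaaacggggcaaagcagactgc
NFKB1, the first of its start sites (chr4:102501109-102501358, plus strand): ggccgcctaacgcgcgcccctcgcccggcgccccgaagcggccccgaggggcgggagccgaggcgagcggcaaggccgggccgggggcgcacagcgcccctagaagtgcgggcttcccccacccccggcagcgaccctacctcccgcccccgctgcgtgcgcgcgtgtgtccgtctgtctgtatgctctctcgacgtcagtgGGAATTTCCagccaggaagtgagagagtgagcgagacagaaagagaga

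The short form of the NF-kB site was present in the promoters of 5 of the 6 genes. It lay at −79 to −71 from the start in CCL20 and at −91 to −83 in IL8. NFKBIA held it at −242 to −234 and at −81 to −73, and TNFAIP3 at −67 to −59 and at −55 to −47. NFKB1 held it at −48 to −40 from the first start and not at the other start, and neither RELA window held it. Of 35116 promoters of the same length, 2198 (6.26%) held this form. It was settled on after the members' promoters had been read, so the number of members that hold it is a description only. A longer form, the decameric kappaB consensus, was searched first and was present in 3956 promoters (11.3%). It matched CCL20, NFKBIA, TNFAIP3 and the first start of NFKB1 and did not match IL8 or RELA. The AP-1 form was present in 2707 promoters (7.71%) and, among the 6 genes, only in IL8, at −137 to −131.

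VPA moved 4 of the 6 genes in both media and in the same directions, with CCL20 and TNFAIP3 higher and NFKBIA and NFKB1 lower. High glucose lowered CCL20 and NFKBIA in untreated cells, and NFKBIA and NFKB1 in cells with VPA. IL8 and RELA were not called in any comparison. In these bulk libraries a change in the make-up of the culture and a change in RNA per cell cannot be told apart. Differences were tested over all genes with the quasi-likelihood F test of edgeR, and a gene was called at a Benjamini-Hochberg adjusted p (FDR) of 0.05 or less. The counts of members have to be read against a large background. In HG against LG, 24.7% of 15452 genes tested were called (12.0% higher and 12.7% lower), and of the members 0 of 6 were higher and 2 of 6 lower. In LGV against LG, 41.6% of 15944 genes were called (21.7% higher and 19.9% lower), with 2 of 6 members higher and 2 of 6 lower. In HGV against HG, 46.1% of 16188 genes were called (25.8% higher and 20.2% lower), again with 2 of 6 members each way. In HGV against LGV, 40.7% of 16208 genes were called (21.2% higher and 19.5% lower), with 0 of 6 members higher and 2 of 6 lower. With 6 genes, none of these counts sets the group apart from all genes, and the results below are about single genes. The share of all calls that were higher depended on the scaling, and the members' calls did not. In HG against LG it was 48.6%, and 64.3% with upper quartile factors. With library size in place of TMM factors it went from 52.1% to 69.7% in LGV against LG, from 56.1% to 68.1% in HGV against HG and from 52.2% to 62.0% in HGV against LGV.

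**Figure D1:**
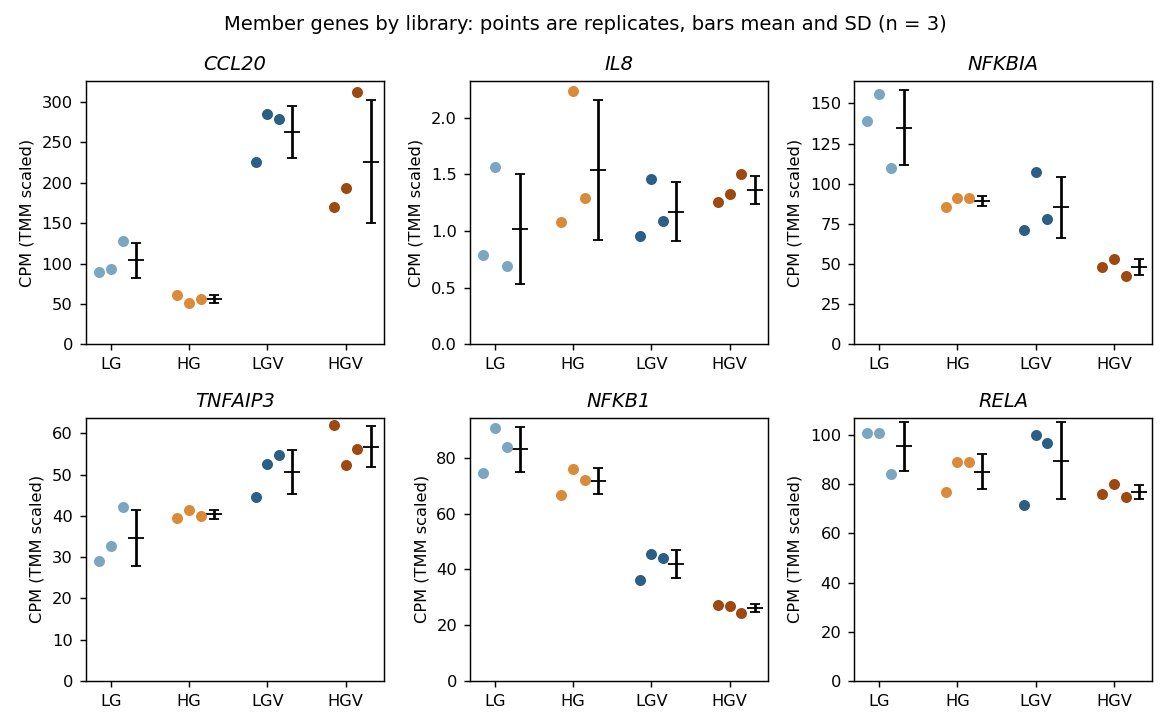
Level of each gene in CPM (TMM scaled; linear axes that start at 0 and differ between panels) in the 12 libraries, by group. Points are libraries and bars are mean ± SD (n = 3); CCL20 is higher and NFKB1 lower in every library with VPA than in every library without it.

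CCL20 encodes the chemokine ligand of CCR6, which attracts dendritic cells and lymphocytes to epithelia. On GRCh37 the gene lies on the plus strand of chromosome 2 from 228670455 to 228682280. It was measured at 89.5, 93.0 and 128 CPM in LG and at 60.7, 50.5 and 55.9 CPM in HG. With VPA it was at 226, 285 and 279 CPM in LGV and at 170, 194 and 313 CPM in HGV. The HG libraries were lowest and did not overlap with LG, and both groups with VPA lay above all libraries without it, while LGV and HGV overlapped. Behind these levels stood 1690 to 10639 reads per library.

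CCL20 was 1.83-fold lower in HG than in LG (log2 fold change −0.88, SE 0.14, FDR 0.000277 by edgeR). VPA raised it 2.55-fold in low glucose (log2 fold change 1.35, SE 0.15, FDR 7.98e-06) and 4.05-fold in high glucose (log2 fold change 2.02, SE 0.19, FDR 4.16e-06). With VPA present, HGV and LGV differed by a log2 fold change of −0.24 (95% interval −0.61 to 0.13, FDR 0.298), which was not called. This value depended on single libraries. Without HGV replicate 3, the library at 313 CPM, it was −0.55 (FDR 0.0091). With other libraries left out it came as near to 0 as −0.07 (FDR up to 0.81).

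IL8 encodes a neutrophil chemokine and a classic target of NF-kB and AP-1. It lies on the plus strand of chromosome 4 from 74606236 to 74609433 (GRCh37). It was near the lower end of the table, with 21 to 75 reads per library. Its level was 0.785, 1.57 and 0.689 CPM in LG and 1.08, 2.24 and 1.29 CPM in HG. With VPA it was 0.96, 1.46 and 1.09 CPM in LGV and 1.26, 1.33 and 1.5 CPM in HGV. All 4 groups overlapped, and replicate 2 was the highest in LG, in HG and in LGV.

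IL8 was not called in any comparison, and its intervals were wide. HG and LG differed by a log2 fold change of 0.60 (95% interval −0.13 to 1.33, FDR 0.214). The interval was −0.55 to 0.94 for LGV against LG, −0.80 to 0.45 for HGV against HG and −0.38 to 0.79 for HGV against LGV. In LGV against LG, the interval of IL8 held both 0 and the log2 fold change of TNFAIP3 in that comparison (0.56). The difference between HG and LG depended on single libraries. With 1 library left out it ran from 0.21 to 1.11 (FDR 0.0414 to 0.74). The value of 1.11, the only one called, was that without LG replicate 2.

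NFKBIA encodes IkB-alpha, the inhibitor that NF-kB itself induces and that returns the dimers to the cytoplasm. It lies on the minus strand of chromosome 14 from 35870285 to 35873955 (GRCh37). It was measured at 139, 156 and 110 CPM in LG, 85.5, 91.1 and 91.1 CPM in HG, 71.0, 107 and 77.8 CPM in LGV, and 48.4, 53.2 and 42.8 CPM in HGV. LG was highest and HGV lowest, each without overlap with the others, and HG and LGV overlapped between them.

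NFKBIA was lower in all 4 pairwise comparisons. It was 1.49-fold lower in HG than in LG (log2 fold change −0.58, SE 0.13, FDR 0.0044) and 1.79-fold lower in HGV than in LGV (−0.84, SE 0.15, FDR 0.000237). With VPA it was 1.58-fold lower in low glucose (−0.66, SE 0.16, FDR 0.00457) and 1.85-fold lower in high glucose (−0.89, SE 0.11, FDR 2.78e-05). From LG to HGV the mean went from 135 ± 23.2 to 48.1 ± 5.20 CPM (n = 3 each).

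TNFAIP3 encodes A20, an enzyme that edits ubiquitin chains and ends signalling upstream of IKK. It lies on the plus strand of chromosome 6 from 138188351 to 138204451 (GRCh37). Its level was 29.1, 32.6 and 42.1 CPM in LG, 39.4, 41.5 and 40.1 CPM in HG, 44.6, 52.6 and 54.8 CPM in LGV, and 62.1, 52.3 and 56.2 CPM in HGV. The libraries with VPA lay above those without it, and within each treatment LG overlapped with HG and LGV with HGV.

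TNFAIP3 was 1.47-fold higher with VPA in low glucose (log2 fold change 0.56, SE 0.15, FDR 0.00719) and 1.41-fold higher in high glucose (0.49, SE 0.11, FDR 0.00211). This direction was opposite to that of NFKBIA, the other feedback inhibitor among the members. HG against LG gave 0.24 (95% interval −0.07 to 0.55, FDR 0.245), and HGV against LGV gave 0.15 (−0.11 to 0.41, FDR 0.358). The first of these ran from 0.15 to 0.41 with 1 library left out (FDR 0.034 to 0.537). It was 0.41 (FDR 0.034) without LG replicate 3, the LG library with the highest level. An antisense RNA, WAKMAR2, shares 95 exon bases with TNFAIP3 (1.47% of its exon bases). WAKMAR2 had 39 to 91 reads per library in LG, 66 to 70 in HG, 45 to 63 in LGV and 114 to 166 in HGV. TNFAIP3 itself had 779 to 2199 reads. Whether the counting used strand is not stated, and the part of this overlap in the values of TNFAIP3 was not tested.

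NFKB1 encodes p105 and its product p50, the subunit that lacks an activation domain, and is itself a target of NF-kB. It lies on the plus strand of chromosome 4 from 103422487 to 103538459 (GRCh37). It was measured at 74.7, 90.7 and 84.0 CPM in LG, 66.8, 76.1 and 72.2 CPM in HG, 36.3, 45.4 and 44.1 CPM in LGV, and 27.1, 26.8 and 24.5 CPM in HGV. Levels with VPA lay below all levels without it, and HGV lay below LGV.

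NFKB1 was 1.97-fold lower with VPA in low glucose (log2 fold change −0.98, SE 0.13, FDR 2.64e-05) and 2.74-fold lower in high glucose (−1.45, SE 0.11, FDR 4.23e-07). HGV was 1.62-fold below LGV (−0.70, SE 0.13, FDR 0.000309). Without VPA, HG and LG differed by −0.19 (95% interval −0.46 to 0.07, FDR 0.282), and their libraries overlapped.

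RELA encodes p65, the subunit with the activation domain in the most common dimer. It lies on the minus strand of chromosome 11 from 65421070 to 65430561 (GRCh37). It was measured at 101, 101 and 84.0 CPM in LG, 76.7, 89.2 and 88.9 CPM in HG, 71.5, 100 and 96.6 CPM in LGV, and 76.1, 80.2 and 74.7 CPM in HGV. Neighbouring groups in the order of means overlapped throughout, from 77.0 ± 2.83 CPM in HGV to 95.4 ± 9.92 CPM in LG. The groups at the ends of this order, LG and HGV, did not overlap. This pair was not among the comparisons tested.

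RELA was not called in any comparison, and its intervals were narrower than those of IL8. The interval of the log2 fold change was −0.41 to 0.12 for HG against LG, −0.38 to 0.22 for LGV against LG, −0.36 to 0.08 for HGV against HG and −0.51 to 0.04 for HGV against LGV. In the last of these the value was −0.23 (FDR 0.165), and without LGV replicate 1, the lowest of all libraries, it was −0.37 (FDR 0.0167). With other libraries left out it came as near to 0 as −0.15 (FDR up to 0.501).

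**Figure D2:**
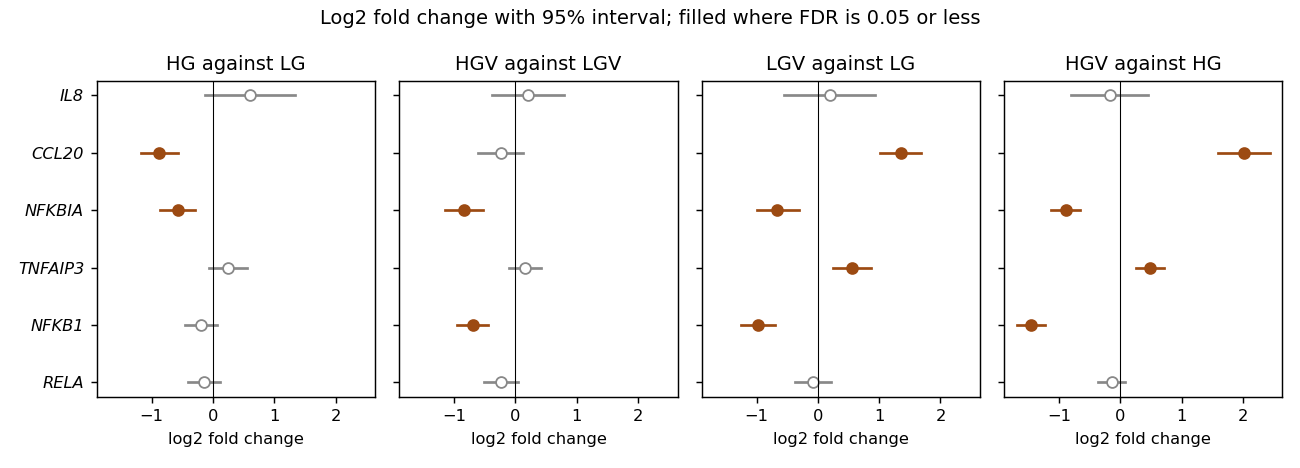
Log2 fold change of each gene in the 4 pairwise comparisons, with 95% intervals from the edgeR fit. Filled points are called at an FDR of 0.05 or less; CCL20 and TNFAIP3 lie right of 0 and NFKBIA and NFKB1 left of it in both VPA panels.

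Whether the response to VPA differed between the media was asked with an interaction term of glucose by VPA fitted to all 12 libraries. Here 7 of 16389 genes were called (0.0427%), and 0 of the 6 members, by edgeR's quasi-likelihood test. At an unadjusted p under 0.05 there were 2 members, CCL20 and NFKB1, and edgeR's likelihood ratio test and DESeq2 also called 0 with 2 at that level. For CCL20 the rise with VPA was larger in high glucose by 0.67 on the log2 scale (95% interval 0.14 to 1.21, FDR 0.305 by edgeR). For NFKB1 the interaction was −0.47 (95% interval −0.82 to −0.12, FDR 0.274 by edgeR). Neither passed the correction, so the fold changes in the 2 media are not shown to differ. For the other members the intervals were −1.33 to 0.62 for IL8, −0.66 to 0.21 for NFKBIA, −0.45 to 0.34 for TNFAIP3 and −0.43 to 0.33 for RELA.

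Between genes, levels were compared as CPM per kilobase of exons (all annotated exons of a gene joined, GENCODE on GRCh37, so the scale is approximate). In LG the order of these levels was CCL20 (65.0), NFKBIA (39.9), RELA (17.5), TNFAIP3 (5.37), NFKB1 (5.30) and IL8 (0.392). In HGV it was CCL20 (142), NFKBIA (14.2), RELA (14.1), TNFAIP3 (8.82), NFKB1 (1.67) and IL8 (0.527). CCL20 was thus the most abundant member per length in both, and NFKBIA came down to the level of RELA on this scale. The order between genes depends on the lengths used, which were 15679 bases for NFKB1, 6443 for TNFAIP3, 5457 for RELA and 3394 for NFKBIA. By CPM alone, NFKB1 (83.1) stood above TNFAIP3 (34.6) in LG, and NFKBIA (135) above CCL20 (104). On that scale NFKBIA went from above RELA in LG (135 against 95.4) to below it in HGV (48.1 against 77.0).

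Ratios between members within a library do not depend on the scaling of libraries. The 4 pairs were chosen after the levels had been seen, and the ratios are given per length and without a test. Their absolute size depends on the lengths used. Reads per kilobase of NFKBIA, the inhibitor, over those of RELA, its partner, were 2.27 ± 0.197 in LG, 1.69 ± 0.085 in HG, 1.53 ± 0.215 in LGV and 1.00 ± 0.0744 in HGV (n = 3 each). LG did not overlap with the other groups, nor did HGV. For NFKB1 over RELA the ratio was 0.306 ± 0.0462 in LG, 0.294 ± 0.0103 in HG, 0.165 ± 0.0107 in LGV and 0.118 ± 0.00519 in HGV, with every library with VPA below every library without it.

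The ratio of the inhibitors, TNFAIP3 over NFKBIA, was 0.140 ± 0.0526 in LG, 0.238 ± 0.00557 in HG, 0.320 ± 0.0565 in LGV and 0.628 ± 0.0961 in HGV. Groups next to each other in this order did not overlap. The ratio of CCL20 over NFKBIA was 1.70 ± 0.672 in LG and 1.33 ± 0.167 in HG, against 6.69 ± 0.972 in LGV and 10.3 ± 4.57 in HGV. LG and HG overlapped, as did LGV and HGV, and the mean of HGV held a library at 15.5 beside values of 7.49 and 7.76.

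**Figure D3:**
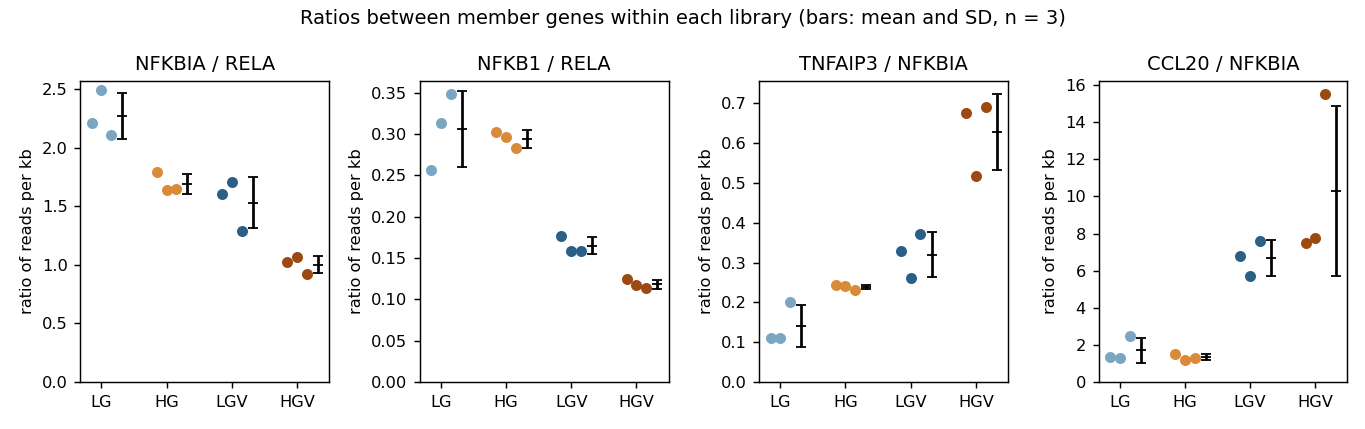
Ratio of reads per kilobase between pairs of members within each library (linear axes from 0, no unit), by group, with mean ± SD (n = 3). The ratio of NFKBIA to RELA is highest in LG and lowest in HGV, and that of TNFAIP3 to NFKBIA the reverse.

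The rest of the pathway was read from 9 lists with 154 symbols, of which 106 were in the table. Counts of single lists in the paragraphs that follow have to be read beside the shares of all genes given here. No list was tested as a set. In HG against LG, 6 of 100 tested were higher and 22 lower (7 and 17 with library size in place of TMM factors), beside 12.0% and 12.7% of all genes. In LGV against LG, 27 of 106 were higher and 20 lower (41 and 14), beside 21.7% and 19.9%. In HGV against HG, 39 of 106 were higher and 26 lower (45 and 22), beside 25.8% and 20.2%. In HGV against LGV, 15 of 106 were higher and 32 lower (17 and 25, or 21 and 24 with upper quartile factors), beside 21.2% and 19.5%. With 1 library left out, the 28 calls in HG against LG came to 15 without LG replicate 1 and to 18 without LG replicate 2 or HG replicate 3. The median log2 fold change of the lists was −0.09, 0.13, 0.07 and −0.13 in these 4 comparisons, against 0.01, −0.01, 0.02 and 0.01 over all genes. In the interaction 0 of 106 were called, with 17 at an unadjusted p under 0.05 by edgeR's quasi-likelihood test, 18 by its likelihood ratio test and 20 by DESeq2, which also called 0.

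Among the 8 other subunit and IkB genes, NFKB2 and BCL3 moved most with VPA. NFKB2, which encodes p100 of the non-canonical pathway, rose from 39.7 ± 7.01 CPM in LG to 72.1 ± 10.7 in LGV (log2 fold change 0.88, FDR 0.000263) and from 36.7 ± 2.56 in HG to 75.2 ± 4.04 in HGV (1.03, FDR 6.17e-06). NFKB1, its relative, moved the other way. BCL3, a nuclear IkB protein, was lower with VPA by −0.84 (FDR 0.000613) and −1.11 (FDR 1.86e-05). NFKBIB, which encodes IkB-beta, was lower in HG than in LG like NFKBIA (−0.76, FDR 0.002), and unlike NFKBIA was higher in HGV than in HG (0.38, FDR 0.0203). That rise was lost without HG replicate 1 or HGV replicate 1 (FDR up to 0.0869). In all, 1 rose and 2 fell in LGV against LG, beside 21.7% and 19.9% of all genes. In HGV against HG 3 rose and 1 fell, beside 25.8% and 20.2%. With glucose, 1 fell and 0 rose in HG against LG, beside 12.7% and 12.0% of all genes. In HGV against LGV 1 rose and 1 fell, beside 21.2% and 19.5%. The 4 calls in HGV against HG became 2 without HG replicate 1.

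Of 13 tested genes listed here as other feedback inhibitors, 5 fell and 0 rose in HG against LG, beside 12.7% and 12.0% of all genes. In HGV against LGV, 7 fell and 2 rose, beside 19.5% and 21.2% of all genes. SQSTM1, the ubiquitin receptor p62, went from 294 ± 49.5 CPM in LG to 154 ± 11.7 in HG (log2 fold change −0.91, FDR 0.000106), though 21.0% of its exon bases overlap with C5orf45 on the opposite strand. ZC3H12A, an RNase that degrades cytokine transcripts, was lower in HG by −0.80 (FDR 0.00264). With VPA, 3 rose and 1 fell in low glucose (7 and 1 with library size), beside 21.7% and 19.9% of all genes. In high glucose 5 rose and 1 fell, beside 25.8% and 20.2%. CYLD, a deubiquitinase, rose from 31.2 ± 3.62 to 68.0 ± 7.49 CPM (1.14, FDR 7.52e-06) and from 21.2 ± 2.21 to 40.5 ± 7.35 CPM (0.93, FDR 0.000205). TNIP1, the partner of A20, fell by 0.97 (FDR 1.31e-05) and 0.68 (FDR 0.000366) on the log2 scale, opposite to TNFAIP3. The 5 calls in HG against LG came to 2 without HG replicate 3 and to 3 without HG replicate 2, LG replicate 1 or LG replicate 2.

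In the IKK complex and the steps before it, 4 of 25 genes rose and 7 fell with VPA in low glucose, and 4 rose and 6 fell in high glucose. Over all genes, 21.7% rose and 19.9% fell with VPA in low glucose, and 25.8% rose and 20.2% fell in high glucose. MYD88, the adaptor of IL-1 and Toll-like receptors, went from 39.6 ± 3.94 to 15.7 ± 0.425 CPM (log2 fold change −1.33, FDR 1.94e-06) and from 49.0 ± 2.08 to 15.6 ± 1.32 CPM (−1.65, FDR 2.47e-07). IKBKG fell by 1.90 (FDR 1.16e-06) and 1.48 (FDR 2.8e-05), but it has a near-identical pseudogene copy and its counts are uncertain. CHUK, the kinase IKK-alpha, was 0.59 higher in LGV than in LG (FDR 0.00111) and 0.62 higher in HGV than in HG (FDR 0.00304). In HG against LG 1 rose and 2 fell, beside 12.0% and 12.7% of all genes. In HGV against LGV 5 rose and 6 fell, beside 21.2% and 19.5%. IRAK2, a kinase next to MYD88, was lower with high glucose in both (−0.76, FDR 0.00109, and −0.91, FDR 8.25e-05). Calls in HG against LG became 6 without LG replicate 3, and those in HGV against LGV became 7 without LGV replicate 2.

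Receptors for TNF, IL-1 and Toll-like ligands included 6 that rose and 3 that fell with VPA in low glucose, and 7 and 3 in high glucose, of 12 tested. The shares over all genes were 21.7% and 19.9% in low glucose, and 25.8% and 20.2% in high glucose. IL1R2, the decoy receptor for IL-1, went from 1.49 ± 0.318 CPM in HG to 13.4 ± 2.95 in HGV (log2 fold change 3.16, FDR 2.3e-07). In low glucose it rose as well, from 1.39 ± 0.364 to 9.36 ± 0.0241 CPM (2.74, FDR 3.82e-07). IL1R1, the signalling receptor, fell in both media (−1.02, FDR 0.000341, and −1.24, FDR 5.67e-06), as did LTBR, a receptor of the non-canonical pathway that shares 6.86% of its exon bases with SCNN1A on the opposite strand (−1.18, FDR 3.93e-06, and −1.44, FDR 6.8e-07). TLR1 had 0 to 2 reads per LG library and was at least 7.93-fold higher in LGV, taking 3 reads in each LG library as the floor. In HG against LG 1 of 8 rose and 0 fell, beside 12.0% and 12.7% of all genes. In HGV against LGV 1 of 12 rose and 2 fell, beside 21.2% and 19.5%. The 2 that fell were LTBR and IL17RA, neither of which was called with upper quartile factors or library size. No receptor was called in HG against LG without HG replicate 1, LG replicate 1 or LG replicate 2, and 3 were called without LG replicate 3. In HGV against LGV 1 was called without HGV replicate 3 and 0 without LGV replicate 2 or LGV replicate 3.

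Among the other chemokines, 6 of 25 symbols were in the table, and none rose in any of the 4 pairwise comparisons. CX3CL1, the membrane-bound chemokine fractalkine, was measured at 394 ± 81.9 CPM in LG, 188 ± 2.06 in HG, 124 ± 24.6 in LGV and 60.5 ± 4.97 in HGV. It fell with high glucose like CCL20 (log2 fold change −1.04, FDR 4.48e-05) and fell with VPA, opposite to CCL20, in low glucose (−1.66, FDR 3.32e-06) and in high glucose (−1.64, FDR 1.18e-07). CCL16, a chemokine of hepatocytes, also fell with VPA (−1.29, FDR 6.47e-05, and −1.56, FDR 1.69e-05). Over all genes, 12.0% rose and 12.7% fell in HG against LG, and 21.7% and 19.9% in LGV against LG. The shares were 25.8% and 20.2% in HGV against HG, and 21.2% and 19.5% in HGV against LGV. Of the 6 chemokines, 2 fell in HG against LG, 2 in LGV against LG, 3 in HGV against HG and 3 in HGV against LGV. With upper quartile factors or library size the count was 1 in HG against LG and 1 in HGV against LGV, and with library size it was 2 in HGV against HG. The count was 1 in HG against LG without HG replicate 1, HG replicate 3, LG replicate 1 or LG replicate 2, and in HGV against LGV without HGV replicate 1, HGV replicate 3 or LGV replicate 3. Of the chemokine receptors, 3 of 16 were in the table. CXCR4, the receptor of CXCL12, had 5 to 9 reads per LG library and 19 to 38 in LGV (2.19, FDR 0.000648), and 6 to 7 in HG and 33 to 104 in HGV (3.05, FDR 0.000107). ACKR2, a scavenger of chemokines, was higher in HGV than in LGV (1.14, FDR 0.00693), from 1.35 ± 0.678 to 3.00 ± 0.62 CPM, with 2.6% of its exon bases shared with CYP8B1 on the opposite strand. Chemokine receptors called became 1 in HG against LG without LG replicate 3 or with upper quartile factors, 2 in HGV against HG without HG replicate 3 and 2 in HGV against LGV without HGV replicate 3.

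Other genes known as NF-kB targets moved in both directions. With VPA, 7 of 17 rose and 2 fell in low glucose, beside 21.7% and 19.9% of all genes. In high glucose 11 rose and 3 fell, beside 25.8% and 20.2% of all genes. The median log2 fold change of this list in high glucose was 0.64, against 0.02 over all genes. In HG against LG 2 of 16 rose and 4 fell, beside 12.0% and 12.7% of all genes. In HGV against LGV 4 of 17 rose and 5 fell, beside 21.2% and 19.5%. TNFAIP2 had 4 to 9 reads per LG library and 47 to 70 in LGV (log2 fold change 3.31, FDR 4.47e-06). CD83, a surface marker of activated cells, rose with glucose (1.91, FDR 0.000219) and with VPA (2.36, FDR 3.08e-05, in low glucose). SOD2, the mitochondrial superoxide dismutase, went from 356 ± 65.1 CPM in LG to 680 ± 16.8 in HG (0.96, FDR 6.34e-05). IER3, an early response gene, went the other way, from 169 ± 58.2 to 75.8 ± 12.0 CPM (−1.13, FDR 0.000418). EFNA1, a ligand of Eph receptors, fell with VPA by 1.10 (FDR 1.84e-05) and 1.19 (FDR 1.46e-06).

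AP-1 and C/EBP factors share promoters such as that of IL8 with NF-kB. Of 14 such genes and immediate early genes, 5 rose and 1 fell with VPA in low glucose, beside 21.7% and 19.9% of all genes. In high glucose 8 rose and 4 fell, beside 25.8% and 20.2%. FOS rose from 7.43 ± 3.19 to 18.5 ± 4.19 CPM (log2 fold change 1.33, FDR 0.00118) and from 4.21 ± 1.34 to 15.6 ± 1.62 CPM (1.89, FDR 9.57e-06). CEBPD, a factor of the acute phase response, fell from 17.5 ± 5.75 to 5.63 ± 0.268 CPM (−1.63, FDR 3.05e-05) and from 30.7 ± 6.57 to 7.03 ± 2.24 CPM (−2.12, FDR 7.02e-06). With glucose, 1 rose and 6 fell in HG against LG (3 fell with upper quartile factors or library size), beside 12.0% and 12.7% of all genes. In HGV against LGV 1 rose and 4 fell, beside 21.2% and 19.5%. The calls in HG against LG came to 4 without HG replicate 1, 3 without HG replicate 3, 2 without LG replicate 1 and 3 without LG replicate 2, and those in HGV against LGV to 8 without LGV replicate 1. Proteins that bind AU-rich elements set the decay of transcripts such as IL8. Of 8, 1 rose and 2 fell in HG against LG, 0 rose and 2 fell in LGV against LG (1 rose and 0 fell with library size), 0 rose and 5 fell in HGV against HG (2 fell with library size), and 0 rose and 4 fell in HGV against LGV. Calls came to 1 in LGV against LG without LGV replicate 3 and to 3 in HGV against HG without HG replicate 3. ZFP36, which encodes tristetraprolin, was lower with high glucose by −0.95 (FDR 0.00219) and, with VPA present, by −0.79 (FDR 0.000616).

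**Figure D4:**
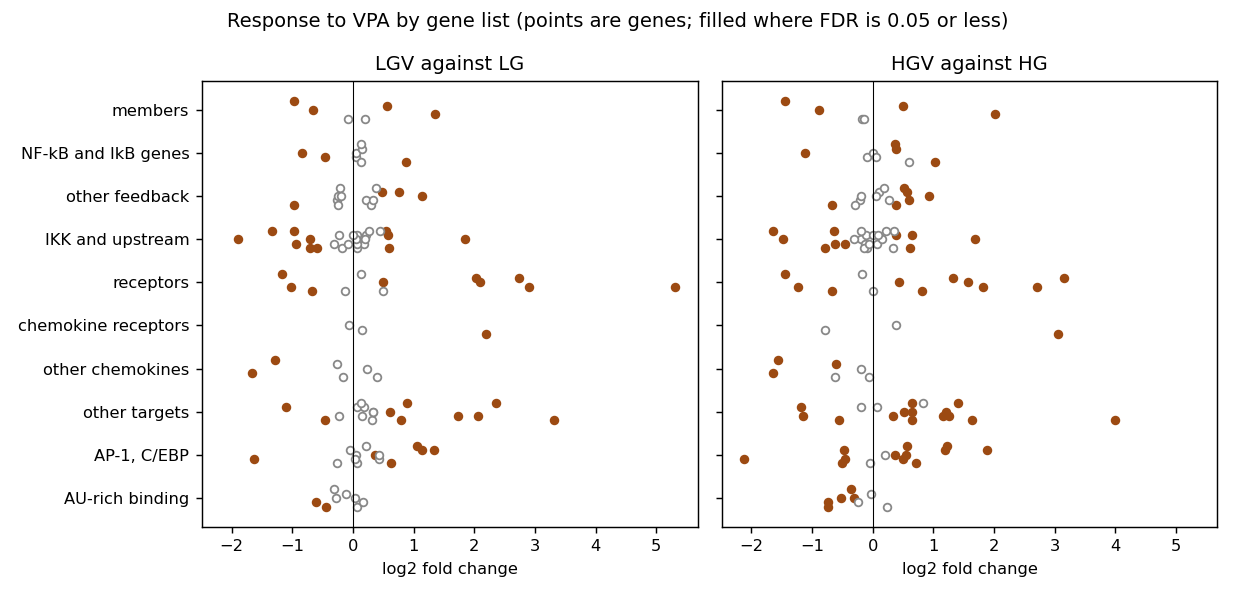
Log2 fold change with VPA in low glucose (left) and high glucose (right) for the members and the genes of 9 pathway lists, 1 point per gene, filled where the FDR is 0.05 or less. Points spread to both sides of 0 in most lists. Among the other chemokines and the AU-rich element binding proteins the filled points all lie left of 0.

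The genes whose levels followed a member most closely were sought among 11900 genes over the 12 libraries, by Pearson's correlation of log2 CPM. The libraries share group means and scaling, so the values are descriptions. For CCL20 they were OAT (0.981), ROR1 (0.969), BNIP3L (0.967), RP11-384L8.1 (0.963) and TMEM194A (0.959). OAT, which encodes ornithine aminotransferase, had means of 75.5, 49.3, 131 and 121 CPM in LG, HG, LGV and HGV. For NFKBIA they were HDGF (0.985), PARD3 (0.983), DUSP3 (0.982), PPP4R1 (0.982) and TRAF4 (0.981). HDGF, which encodes a heparin-binding growth factor, had means of 492, 304, 305 and 142 CPM in the same order.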

How the data were processed

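Poly(A)-selected RNA of 12 HepG2 libraries gave single-end reads of 50 nt. The authors trimmed them, mapped them to GRCh37 (Ensembl annotation) using STAR and assigned them to genes with featureCounts. The deposited values are raw counts, not normalized, of 16389 genes with an average of at least 10 reads. Whether counting used strand is not stated. Replicates were not pooled.

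Genes with a mean of at least 10 reads in the libraries compared were tested with edgeR 4.0.16 (R 4.3.3) by the quasi-likelihood F test, with TMM factors, the 6 libraries of each comparison (12 for the interaction), no covariates and Benjamini-Hochberg adjustment over all genes tested. SE is the log2 fold change divided by the root of F. The test was also tested on simulated data. Intervals and the floor of 3 reads, 0.0713 to 0.112 CPM, are those of the fit and of counting error only. Alternatives were the size factors of DESeq2, upper quartile factors, library size, no filter, 1 CPM in 3 libraries, the likelihood ratio test, DESeq2 1.42.0 (Wald test), a replicate block, 1 fit of 12 libraries, an FDR of 0.01 and leaving out each library.

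The members and lists were chosen with earlier results of these data known. From each list and comparison, the 2 called genes with the largest rise and the 2 with the largest fall could be named. The genes most like CCL20 and NFKBIA were sought among those averaging at least 1 log2 CPM. The plan foresaw 10 members. Positions and exon lengths came from GENCODE on GRCh37, promoters from RefSeq on GRCh38.p14. Figures used matplotlib 3.10.9.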

Additional observations from a re-analysis of the deposited data

How the results depend on the processing

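The number of members called in each direction was the same under every alternative that kept all libraries, and with 1 library left out it differed only by calls gained. Values of called members kept direction and call throughout. Calls gained with 1 library left out were IL8 in HG against LG (1.11 without LG replicate 2), TNFAIP3 in HG against LG (0.41 without LG replicate 3), CCL20 in HGV against LGV (−0.55 without HGV replicate 3) and RELA in HGV against LGV (−0.37 without LGV replicate 1). Directions turned only for values that were not called: RELA in LGV against LG was 0.07 with library size in place of TMM factors and 0.07 without LGV replicate 1 (lowest −0.17, highest 0.07), IL8 in LGV against LG was −0.02 without LG replicate 3 (highest 0.68), and IL8 in HGV against HG was 0.20 without HG replicate 2 (lowest −0.39). In the interaction, TNFAIP3 was 0.03 without LG replicate 1 and 0.01 without LGV replicate 3 (lowest −0.22), and RELA was 0.04 without LG replicate 3 and 0.01 without LGV replicate 2 or LGV replicate 3 (lowest −0.19). The cause was not tested.

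Pathway genes called in HG against LG fell from 28 to 16 at an FDR of 0.01. With 1 library left out they ran from 15 (without LG replicate 1) to 38 (without LG replicate 3), and were 18 without LG replicate 2 and 18 without HG replicate 3. In the interaction the count ran from 0 to 1, and the 1, found without LG replicate 3, was CD83, named here after its value was seen. Over all genes the interaction gave 7 calls, 202 by the likelihood ratio test, 162 by the Wald test of DESeq2, 13 with the replicate block, 1 with library size, 1 at an FDR of 0.01 and 1 to 217 with 1 library left out (217 without LG replicate 2). Over all genes, HG against LG fell from 3813 calls to 1852 at an FDR of 0.01, and to 1933 without LG replicate 1 and 2076 without HG replicate 3, and HGV against LGV from 6604 to 4263. Library size in place of TMM factors moved the median log2 fold change of all genes from −0.01 to 0.16 in LGV against LG and from 0.02 to 0.15 in HGV against HG. Relative to those medians no called member changed direction.

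The labels give the groups the same replicate numbers, without saying that a number marks a shared culture. Correlations of deviations from the group means between same-numbered libraries ran from −0.115 to 0.006 in HG against LG and −0.188 to 0.256 in LGV against LG. They ran from −0.098 to 0.215 in HGV against HG and 0.023 to 0.176 in HGV against LGV. Between libraries of different numbers the ranges were −0.055 to 0.1, −0.349 to 0.38, −0.303 to 0.225 and −0.122 to 0.09 in the same order. The ranges overlapped in each comparison, and in HGV against LGV all same-numbered values were positive. These values do not settle whether the numbers mark pairs, and the main fits did not take them as pairs. With the replicate block, 2, 4, 4 and 2 members were called in these comparisons, as without it, and 0 in the interaction. Over all genes the block gave 3351, 6971, 8229 and 7308 calls in the 4 pairwise comparisons, against 3813, 6638, 7456 and 6604 without it. In the interaction it gave 13 calls, against 7 without it. The IL8 values rest on 21 to 75 reads per library, which limits what could be detected.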
